A study of Mus musculus with 9 samples.

Results

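The genes described here are 10 integrin subunits that intestinal epithelial cells can express. They are 5 alpha subunits (Itga2, Itga3, Itga5, Itga6 and Itgav) and 5 beta subunits (Itgb1, Itgb4, Itgb5, Itgb6 and Itgb8), and all 10 were found by symbol among the 50600 genes of the deposited tables. Their RNA was followed by RNA-seq in 9 libraries of mouse intestinal epithelium grown in Matrigel, a gel of basement membrane proteins that is rich in laminin. Of the libraries, 6 came from small intestinal organoids of WT mice whose strain is labelled C57BL/6, and 3 came from tumoroids. The organoids spent 24 hr in a mix of organoid medium (EGF, Noggin, R-spondin1 and B27) and conditioned medium (cM). The tumoroids were derived from intestinal tumours of Apc1638N/+ mice whose strain is labelled MIX and were labelled untreated, and the study's methods give them a medium without R-spondin1. Each group had 3 replicates, and the methods state that replicates came from different mice. Apc1638N is a germline truncating allele of the Wnt pathway inhibitor Apc, carried by the mice in a heterozygous state. The study describes its intestinal tumours as derived from spontaneous loss of Apc, and the state of the other allele in the tumoroids was not tested here. The strain labels differ, although the methods give all mice a mixed genetic background. By the methods, the mice of the tumoroids were also older than those of the organoids. Genotype, labelled strain, mouse age, tumour origin and medium all changed together between organoids and tumoroids, so their parts in any difference cannot be told apart.

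For the organoids the titles and the treatment fields name opposite media. Groups are named here after the titles, as T-cM-titled organoids (titled as given medium from tumoroids, n = 3) and WT-cM-titled organoids (titled as given medium from WT organoids, n = 3), and every direction between them turns round if the treatment field is right. The comparison of tumoroids with the mean of both organoid groups does not depend on this.

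Integrins are transmembrane receptors made of 1 alpha and 1 beta subunit, and they tie the cell to its extracellular matrix. Itgb1 can pair with Itga2 (a collagen receptor), Itga3 and Itga6 (laminin receptors), Itga5 (a fibronectin receptor) and Itgav. Itgb4 pairs with Itga6 alone, in the laminin receptor of hemidesmosomes, which anchor epithelium to the basement membrane. Itgb5, Itgb6 and Itgb8 pair with Itgav, and the dimers of Itgav with Itgb6 or Itgb8 bind latent TGF-beta and can release its active form. In the intestine, integrins of these classes hold crypt and villus cells on the basement membrane.

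The libraries held 16541635 to 25170966 reads counted on genes, and 3 counts of a gene, taken as the least that shows expression, corresponded to 0.103 to 0.204 CPM. CPM are counts divided by the library size after TMM scaling, a scaling that sets the bulk of genes level between libraries, and the limit covers counting error only. The 6 epithelial markers summed to 9115 to 11385 CPM in the organoid libraries and to 6336 to 7299 CPM in the tumoroids. They did not move together, since between these groups Krt18 rose from a mean of 528 to 1370 CPM while Vil1 fell from 1402 to 316, Krt19 from 2413 to 1113 and Krt8 from 3742 to 2226 CPM (edgeR, adjusted p under 0.05), and Epcam and Cdh1 did not pass. The summed markers of fibroblasts (8 genes), endothelium (4 genes), smooth muscle (3 genes) and glia (3 genes) stayed at or under 4.74 CPM in every library. The 5 leukocyte markers summed to at most 4.51 CPM in organoids and to 2.95 to 21.2 CPM in tumoroids, where the highest sum came from Csf1r in tumoroid 2 (20.4 CPM). The defining markers Cd3e (T cells), Col3a1 and Lum (fibroblasts), Kdr (endothelium) and Sox10 (glia) were at 0 counts in every library. Since these were bulk samples, fewer cells of a type and less RNA per cell cannot be told apart. Apc was at 79.4 to 124 CPM in tumoroids and 103 to 171 CPM in organoids, which does not check the genotype, since a truncating allele can still be transcribed.

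Per length, the epithelium was dominated by a few of these subunits. In TPM, the deposited unit in which counts are divided by gene length and each library is scaled to the same total, the order of the mean levels over the 6 organoid libraries was Itgb1 (140 ± 9.95, SD), Itga3 (87.0 ± 11.0), Itga6 (51.9 ± 16.4), Itgb4 (51.9 ± 3.06), Itgb5 (27.5 ± 1.03), Itga2 (10.6 ± 3.17), Itgav (4.33 ± 0.689), Itgb6 (3.27 ± 0.588) and Itga5 (0.51 ± 0.0923), with Itgb8 listed at 0. Neighbours in this order overlapped between libraries for Itga3 and Itga6, for Itga6 and Itgb4, and for Itgav and Itgb6, and no others did. In the 3 tumoroids the order was Itgb1 (311 ± 100 TPM), Itgb4 (127 ± 28.2), Itga3 (122 ± 39.0), Itga6 (75.3 ± 26.9), Itgb5 (48.4 ± 11.0), Itgb6 (30.9 ± 19), Itgav (14 ± 8.76), Itga2 (10.2 ± 7.50), Itga5 (8.16 ± 9.23) and Itgb8 (0.227 ± 0.254). Between Itgb4 and Itga5 all neighbours in that order overlapped between tumoroids. On this scale the median of all tested genes lay 0.52 higher in tumoroids (log2 of TPM + 1), so TPM levels are read here within a group and as ratios, and CPM are used between groups.

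**Figure D1:**
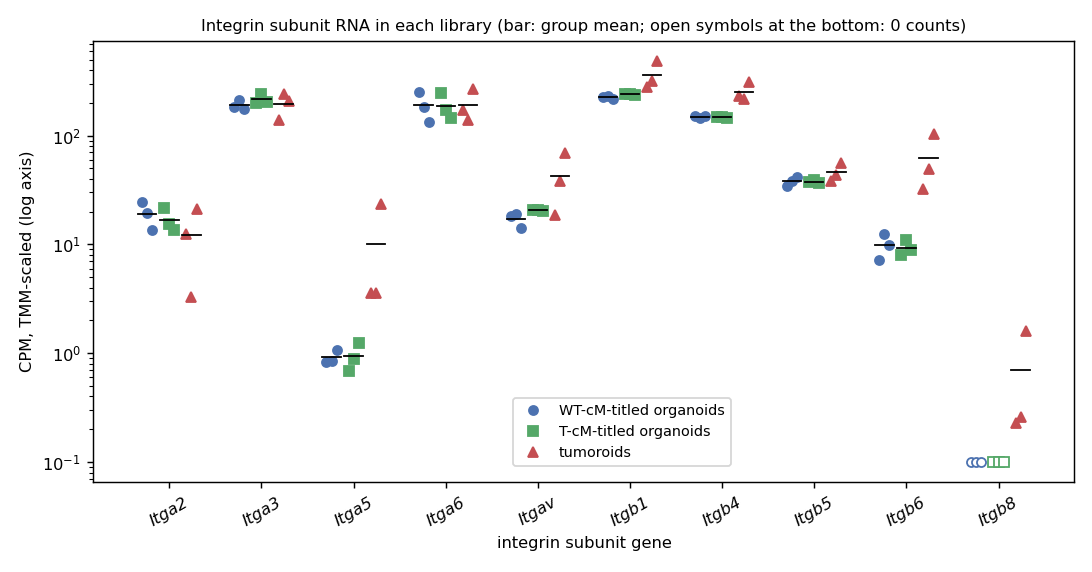
CPM of each of the 10 integrin subunit genes in each of the 9 libraries, on a log axis, with WT-cM-titled organoids as circles, T-cM-titled organoids as squares, tumoroids as triangles and a bar at each group mean (n = 3). The tumoroid points of Itgb6, Itga5, Itgb4 and Itgb1 lie above all organoid points, those of Itga3 and Itga6 overlap them, and Itgb8 had 0 counts in the 6 organoid libraries (open symbols).

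Tumoroids carried more RNA of 5 of the 9 tested subunits than organoids did, and less of none. The genes that rose were Itga5, Itgb6, Itgav, Itgb4 and Itgb1, at an adjusted p under 0.05 (edgeR quasi-likelihood test, Benjamini-Hochberg over the 16208 tested genes), against 29.6% of all tested genes that were higher and 20.8% that were lower in this comparison. For 3 of them, Itga5, Itgb6 and Itgav, the log2 fold change was also above 1, the size that 21% of all genes reached with an adjusted p under 0.05. At an unadjusted p under 0.05 the counts were again 5 higher and 0 lower, and the count of members lower was 0 by voom and DESeq2 as well. The median log2 fold change over the 9 members was 0.62, and it was 0.16 over all tested genes. Itga5 reached 1 TPM, the minimum for testing, in tumoroids only, so that its place among the tested members already required a higher level in at least 1 of them. Of the 8 other tested members, which reached it in organoids as well, 4 were higher and none lower. In 4 members (Itga5, Itgb6, Itgb4 and Itgb1) every tumoroid was above every organoid library, as was the case for 25.6% of all tested genes.

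Itgb6, the beta subunit that makes Itgav a receptor for latent TGF-beta, had the smallest adjusted p of the members. It was at 7.14, 12.4 and 9.87 CPM in WT-cM-titled organoids 1 to 3 and at 7.99, 10.9 and 8.85 CPM in T-cM-titled organoids 1 to 3. In tumoroids 1 to 3 it was at 32.3, 49.4 and 103 CPM. The lowest tumoroid was thus well above the highest organoid library, and the 3 tumoroids themselves differed 3.19-fold from lowest to highest. The log2 fold change was 2.69 ± 0.32 (SE; adjusted p = 0.00011, edgeR), a mean of 6.46 times the organoid level. Without tumoroid 3, the highest, it was 2.09 (adjusted p = 9.7e-05, edgeR).

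Itga5, the alpha subunit of the fibronectin receptor, was the member with the largest change when all tumoroids were kept. Without tumoroid 3 the change of Itgb6 was larger (2.09 against 1.94). Organoids held only 13 to 24 counts of it per library, or 0.82, 0.85 and 1.06 CPM in WT-cM-titled and 0.69, 0.88 and 1.24 CPM in T-cM-titled organoids. Tumoroids 1 and 2 were at 3.58 and 3.61 CPM and tumoroid 3 was at 23.4 CPM. The groups did not overlap, but tumoroid 3 stood 6.52-fold above tumoroid 1. The log2 fold change was 3.45 ± 0.58 (SE; adjusted p = 0.00086, edgeR), and without tumoroid 3 it was 1.94 (adjusted p = 0.00085, edgeR), so that 1 library set much of the size. Because Itga5 was tested through its tumoroid levels alone, its direction was largely fixed before the test, and these p-values lend it no support.

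Itgav, the partner of Itgb5, Itgb6 and Itgb8, rose less evenly. It was at 18.2, 19.2 and 14.2 CPM in WT-cM-titled organoids, at 20.6, 20.9 and 20.3 CPM in T-cM-titled organoids and at 18.5, 38.5 and 69.4 CPM in tumoroids 1 to 3. Tumoroid 1 lay within the organoid range, and tumoroids 2 and 3 above it. The log2 fold change was 1.16 ± 0.32 (SE; adjusted p = 0.013, edgeR). Without tumoroid 3 the value was 0.59 and no longer passed the test (adjusted p = 0.082, edgeR), so this call rested on that library.

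The remaining subunits that rose were already abundant in organoids and changed by less. Itgb1, the common beta subunit, was at 228, 232 and 219 CPM in WT-cM-titled organoids, at 238, 240 and 238 CPM in T-cM-titled organoids and at 281, 314 and 480 CPM in tumoroids. Itgb4, the hemidesmosome subunit, was at 152, 145 and 151 CPM in WT-cM-titled and at 148, 148 and 146 CPM in T-cM-titled organoids. In tumoroids it was at 229, 217 and 312 CPM, and neither gene overlapped between tumoroids and organoids. The log2 fold change was 0.62 ± 0.17 for Itgb1 (SE; adjusted p = 0.011, edgeR) and 0.77 ± 0.13 for Itgb4 (SE; adjusted p = 0.00095, edgeR). Without tumoroid 3 it was 0.35 for Itgb1 (adjusted p = 0.041, edgeR) and 0.58 for Itgb4 (adjusted p = 0.0022, edgeR). Leaving out replicate 2 of every group (0.72, adjusted p = 0.058, edgeR) or replicate 3 of every group (0.34, adjusted p = 0.14, edgeR) ended the call for Itgb1. The same was true of Itgav (1.27 and 0.53, adjusted p = 0.080 and 0.19, edgeR). Without replicate 2 both values were thus no smaller than with all libraries. Among the 9 tested members Itgb1 and Itgb4 were the steadiest across the organoids, since the highest and lowest of the 6 libraries differed by 1.10-fold (Itgb1) and 1.04-fold (Itgb4).

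Promoter windows of the members that rose are shown because they moved in the same direction, and Itgb4 is not among them. The windows were taken from RefSeq (GRCm38.p6, 250 bases before to 50 bases after a start site, on the strand of the gene) and were found for 8 of the 10 members, with 10 windows in all since Itga3 and Itgb6 have a further start. The first start is printed for Itgb6 (chr2:60722554-60722853, minus strand), Itga5 (chr15:103366742-103367041, minus strand), Itgav (chr2:83724147-83724446, plus strand) and Itgb1 (chr8:128685404-128685703, plus strand), in lower case with every match to the motifs named after them in capitals.
Itgb6: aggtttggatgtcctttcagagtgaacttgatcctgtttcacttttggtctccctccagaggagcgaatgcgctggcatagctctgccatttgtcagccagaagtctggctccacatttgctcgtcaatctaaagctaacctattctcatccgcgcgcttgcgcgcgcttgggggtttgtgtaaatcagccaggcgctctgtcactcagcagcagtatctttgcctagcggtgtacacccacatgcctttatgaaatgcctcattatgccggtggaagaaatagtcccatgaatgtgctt
Itga5: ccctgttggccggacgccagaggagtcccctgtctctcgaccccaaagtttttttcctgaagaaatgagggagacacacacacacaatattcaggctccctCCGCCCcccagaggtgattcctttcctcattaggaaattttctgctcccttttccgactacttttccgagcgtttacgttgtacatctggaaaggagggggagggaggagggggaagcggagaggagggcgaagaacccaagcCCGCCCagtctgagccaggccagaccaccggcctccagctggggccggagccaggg
Itgav: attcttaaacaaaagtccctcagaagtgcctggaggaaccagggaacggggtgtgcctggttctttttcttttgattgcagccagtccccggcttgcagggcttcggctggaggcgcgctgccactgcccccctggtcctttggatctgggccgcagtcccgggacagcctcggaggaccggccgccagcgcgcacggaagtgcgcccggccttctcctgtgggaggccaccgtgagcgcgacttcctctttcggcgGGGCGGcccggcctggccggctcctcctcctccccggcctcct
Itgb1: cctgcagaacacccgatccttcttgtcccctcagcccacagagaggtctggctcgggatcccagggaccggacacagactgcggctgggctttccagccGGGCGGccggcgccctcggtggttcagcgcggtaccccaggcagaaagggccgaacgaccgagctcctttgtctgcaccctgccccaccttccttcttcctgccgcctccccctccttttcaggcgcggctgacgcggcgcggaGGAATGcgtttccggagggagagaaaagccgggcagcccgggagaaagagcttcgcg
The motifs searched on both strands were GGAATG (the TEAD motif, bound by the partners of the co-activator YAP), CTTTGA (a core of the TCF/LEF motif, bound by partners of beta-catenin), TGAGTCA (AP-1) and GGGCGG (the GC box). No 2 of them share a stretch in the printed windows. GGAATG was found in 14.7% of all 32851 RefSeq windows of this length and in the window of 1 member, Itgb1. CTTTGA occurred in 16% and TGAGTCA in 5.2% of all windows and in none of the members' windows. GGGCGG occurred in 35.7% of all windows and in those of 6 members (Itga2, Itga3, Itga5, Itgav, Itgb1 and Itgb5), and the Itgb6 windows held none of these motifs. The GC content of the printed windows was 50.3% for Itgb6, 58.7% for Itga5 and 67.3% for both Itgav and Itgb1.

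On GRCm38, by release M21 of the GENCODE annotation, Itgb6 spans chr2:60598292-60722643, Itga5 chr15:103344286-103366763, Itgav chr2:83724397-83806916, Itgb1 chr8:128685654-128733200 and Itgb4 chr11:115974709-116008412. The other members are Itga2 (chr13:114833081-114932100), Itga3 (chr11:95044474-95076801), Itga6 (chr2:71745616-71858416), Itgb5 (chr16:33829665-33949338) and Itgb8 (chr12:119158022-119238802), and all 10 were matched by gene identifier. Exons of Itgav share 634 bases with Gm13684, a non-coding gene on the opposite strand, and exons of Itgb4 share 537 bases with the lincRNA B230344G16Rik, also on the opposite strand. The remaining 8 members share no exonic base with another annotated gene. The library kit kept strand, but whether strand was used in counting was not given in the sources used here, so reads in those stretches of Itgav and Itgb4 may belong to either gene.

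The laminin-binding alpha subunits Itga3 and Itga6 and the collagen-binding Itga2 did not pass the test in tumoroids, and neither did Itgb5. Itga6 was at 253, 184 and 133 CPM in WT-cM-titled organoids, at 246, 171 and 146 CPM in T-cM-titled organoids and at 172, 139 and 268 CPM in tumoroids. The groups overlapped throughout, with a log2 fold change of 0.03 (95% interval -0.57 to 0.63; adjusted p = 0.94, edgeR). Itga3 was at 175 to 242 CPM in organoids and at 139, 239 and 207 CPM in tumoroids, and its log2 fold change was -0.05 (95% interval -0.44 to 0.34; adjusted p = 0.84, edgeR). The Itga6 interval includes a rise of the size seen for Itgb1.

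Itga2 was at 24.5, 19.3 and 13.6 CPM in WT-cM-titled organoids, at 21.6, 15.3 and 13.5 CPM in T-cM-titled organoids and at 12.5, 3.31 and 21.1 CPM in tumoroids. Tumoroid 2 lay far below every other library and tumoroid 3 within the organoid range. The log2 fold change was -0.54 (95% interval -1.59 to 0.51; adjusted p = 0.37, edgeR), and it was -0.09 without tumoroid 2 and -1.20 without tumoroid 3 (adjusted p = 0.83 and 0.06, edgeR). Itgb5, a vitronectin receptor subunit with Itgav, was at 34.2 to 41.6 CPM in organoids and at 38.6, 43.2 and 55.9 CPM in tumoroids. Its log2 fold change was 0.28 ± 0.14 (SE; adjusted p = 0.12, edgeR), and it passed the test without tumoroid 1 (0.39, adjusted p = 0.048, edgeR), with upper-quartile factors (0.38, adjusted p = 0.034, edgeR) and on the scale of log2(TPM + 1) (0.77, adjusted p = 0.0032, limma).

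Itgb8, the other subunit that makes Itgav a receptor for latent TGF-beta, was nearly absent. No read of it was counted in any of the 6 organoid libraries, and tumoroids 1 to 3 held 5, 7 and 47 counts, or 0.23, 0.26 and 1.61 CPM. It was below the filter and not tested. Set against 3 counts per organoid library, its mean CPM in tumoroids was at least 4.16-fold higher, and at least 1.44-fold higher without tumoroid 3.

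**Figure D2:**
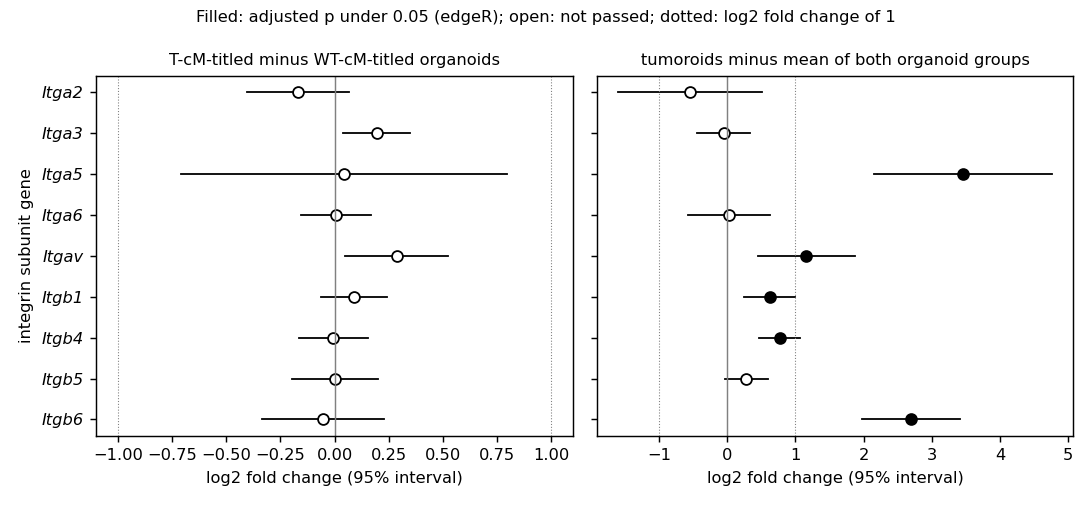
Log2 fold change of the 9 tested subunits with 95% intervals between the organoid groups (left, n = 3 pairs) and between 3 tumoroids and 6 organoid libraries (right), on separate x axes. Filled points had an adjusted p under 0.05 (edgeR), which holds for no member on the left and for Itga5, Itgav, Itgb1, Itgb4 and Itgb6 on the right.

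The tumoroids did not carry these genes equally. Tumoroid 3 was the highest of the 3 in 9 of the 10 members (Itga3 was highest in tumoroid 2), and tumoroid 1 was the lowest in 7 members. The ratio of the highest to the lowest tumoroid ran from 1.44 for Itgb4 and 1.45 for Itgb5 to 6.37 for Itga2 and 6.52 for Itga5, and it was 7.12 for the untested Itgb8. Among the 6 organoid libraries the same ratio lay between 1.04 for Itgb4 and 1.90 for Itga6 in the 9 tested members.

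Against each organoid group alone, the counts were close to those against their mean, and these comparisons share the tumoroid libraries. Itga5 is among the genes counted as higher in each. Over WT-cM-titled organoids, 5 members were higher (23.4% of all genes were) and 3 were also above a log2 fold change of 1 (18.2% of all genes). Over T-cM-titled organoids, 4 members were higher (25.3% of all genes) and 2 were above a log2 fold change of 1 (19.4% of all genes). The gene that made the difference was Itgav, whose log2 fold change was 1.29 over WT-cM-titled organoids (adjusted p = 0.023, edgeR) and 1.03 over T-cM-titled organoids (adjusted p = 0.052, edgeR). With all libraries kept, Itgav passed the latter test in 5 of 9 alternative settings (DESeq2, upper-quartile factors, log2(TPM + 1), filterByExpr and no filter on TPM), with adjusted p from 0.030 to 0.13 over the 9 (edgeR, limma and DESeq2). It also passed without tumoroid 1 (1.39, adjusted p = 0.0029, edgeR) and without replicate 1 of every group (1.31, adjusted p = 0.021, edgeR). Itgb1 (0.59, adjusted p = 0.035, edgeR) no longer passed the test over T-cM-titled organoids without tumoroid 3 (0.31, adjusted p = 0.10, edgeR) or with RLE factors (0.52, adjusted p = 0.052, edgeR). Nor did Itgb1 pass it without replicate 1, 2 or 3 of every group (0.66, 0.68 and 0.32, adjusted p = 0.062, 0.13 and 0.25, edgeR). Over WT-cM-titled organoids Itgb1 lost the call without replicate 2 or 3 of every group (0.77 and 0.37, adjusted p = 0.096 and 0.18, edgeR). In that comparison Itgav no longer passed without tumoroid 3 (0.73, adjusted p = 0.073, edgeR), without replicate 2 or 3 of every group (1.44 and 0.61, adjusted p = 0.12 and 0.22, edgeR) or with voom (1.14, adjusted p = 0.058, limma).

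Between the organoid groups no subunit passed the test. None of the 9 tested members had an adjusted p under 0.05 when same-numbered libraries were paired (edgeR, 6 libraries, block on replicate number), whereas 10.1% of all genes did and 1.10% also had an absolute log2 fold change above 1. The count of members was 0 by voom and DESeq2 too, and 2 members had an unadjusted p under 0.05. These were Itga3, higher in T-cM-titled organoids in 3 of 3 pairs with a log2 fold change of 0.19 (95% interval 0.04 to 0.35; adjusted p = 0.12, edgeR), and Itgav, higher in 3 of 3 pairs by 0.29 (95% interval 0.05 to 0.52; adjusted p = 0.13, edgeR). Itgb1 was higher in 3 of 3 pairs by 0.09 and Itga2 was lower in 3 of 3 pairs (-0.17), so that 4 of 9 members kept 1 direction over the pairs, close to the 46.0% of all genes. The groups did not overlap for Itgav and Itgb1, both higher in T-cM-titled organoids, as were 5.12% of all genes.

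Between the organoid groups the intervals of 4 further members were narrow. For Itgb4 the log2 fold change was -0.01 (95% interval -0.16 to 0.15), for Itga6 it was 0.01 (-0.15 to 0.17), for Itgb5 it was 0.00 (-0.20 to 0.20) and for Itgb6 it was -0.05 (-0.33 to 0.23). These intervals exclude a doubling for each of the 4 genes. The interval was wide for the low-count Itga5, at 0.04 (-0.71 to 0.79).

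Some subunits differed between the replicate numbers of the organoids. Itga6 averaged 250 CPM in the 2 libraries of replicate 1, 177 CPM in those of replicate 2 and 140 CPM in those of replicate 3, a 1.79-fold range of pair means, while the libraries of a pair differed by at most 0.13 on the log2 scale. Itga2 ran in the same order, at 23.0, 17.3 and 13.6 CPM, and Itga5 in the reverse order, at 0.756, 0.867 and 1.15 CPM. The range of pair means exceeded the largest difference within a pair for 5 of the 9 members (Itga2, Itga3, Itga5, Itga6 and Itgb6), as a description without a test. The same held for 54.7% of the 13898 tested genes with a count in every organoid library, a share close to that of the members. For Itgav, Itgb1, Itgb4 and Itgb5 it did not.

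The balance of the subunits was read from their TPM within each library. Itga3 and Itga6 together made up most of the alpha subunit RNA, with 57.0% ± 6.74 and 33.1% ± 5.87 (SD) of the summed TPM of the 5 alpha members over the 6 organoid libraries, and 53.6% ± 12.1 and 33.2% ± 7.58 over the 3 tumoroids. Itgav took 2.51% to 3.29% of it in organoids and 3.53% to 7.81% in tumoroids, and Itga5 took 0.225% to 0.489% in organoids and 1.30% to 6.36% in tumoroids. Itgav and Itga5 thus had larger shares in every tumoroid than in any organoid library, though for Itgav by little (3.53% against 3.29%). The shares of Itga3 and Itga6 overlapped. Those of Itga2, also a minor subunit, overlapped too, at 5.40% to 8.57% in organoids and 1.26% to 6.07% in tumoroids.

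Among the 5 beta members Itgb1 held 62.8% ± 1.29 (SD) in organoids and 59.9% ± 1.17 in tumoroids, and Itgb4 held 23.3% ± 0.767 and 25.0% ± 2.47. Itgb6 held 1.13% to 1.92% in organoids and 3.87% to 7.49% in tumoroids, whereas Itgb5 held 11.5% to 13.9% and 8.60% to 10.1%. Both ranges were apart, in opposite directions. The ratio of Itgb6 to Itgb5, which share Itgav, was 0.0987 to 0.154 in organoids and 0.396, 0.540 and 0.872 in tumoroids 1 to 3.

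**Figure D3:**
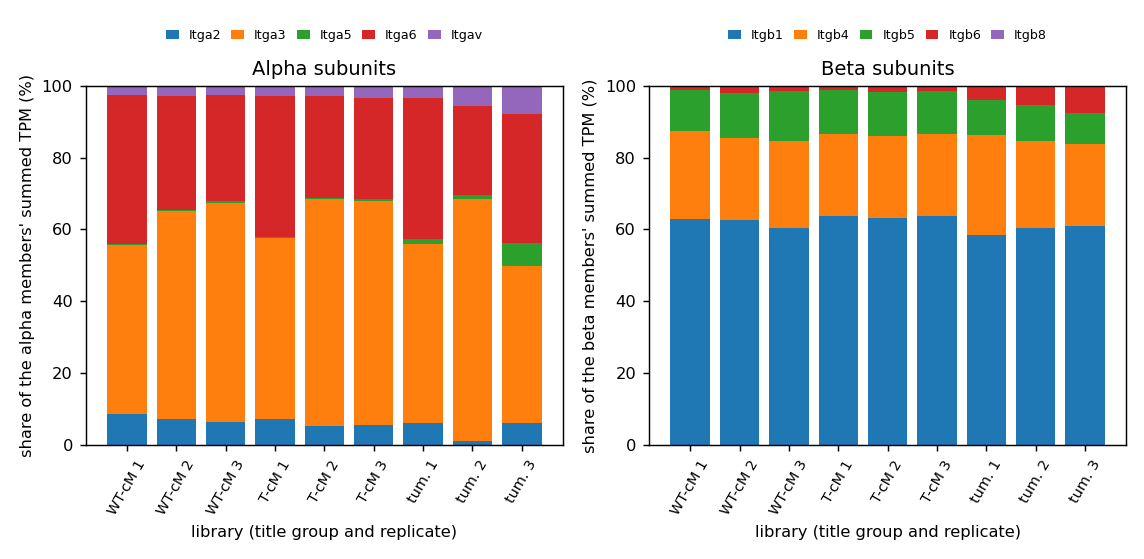
Share of each subunit (%) in the summed TPM of the 5 alpha members (left) and the 5 beta members (right) in each library, with organoids named by the medium in their title (WT-cM, T-cM), tumoroids as tum., and the replicate number. Itga3 and Itga6, and Itgb1 and Itgb4, fill most of each bar, and the bands of Itgav, Itga5 and Itgb6 are wider in the 3 tumoroids.

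Itga6 is the only partner of Itgb4 and also pairs with Itgb1. Its TPM was 0.687 to 1.30 times that of Itgb4 in organoids (mean 0.990 ± 0.258, SD, n = 6) and 0.497 to 0.667 times in tumoroids (0.583 ± 0.0851, n = 3), so the ranges did not overlap. The lowest organoid ratio, in WT-cM-titled organoid 3, was close to the highest tumoroid ratio, in tumoroid 3. Summed over all members, the alpha subunits had 0.565 to 0.764 times the TPM of the beta subunits in organoids and 0.416 to 0.489 times in tumoroids. RNA of the alpha members was below that of the beta members in all 9 libraries. Gene lengths behind the TPM are not given in the sources used here, and an error in 1 length would shift all ratios of that gene alike.

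**Figure D4:**
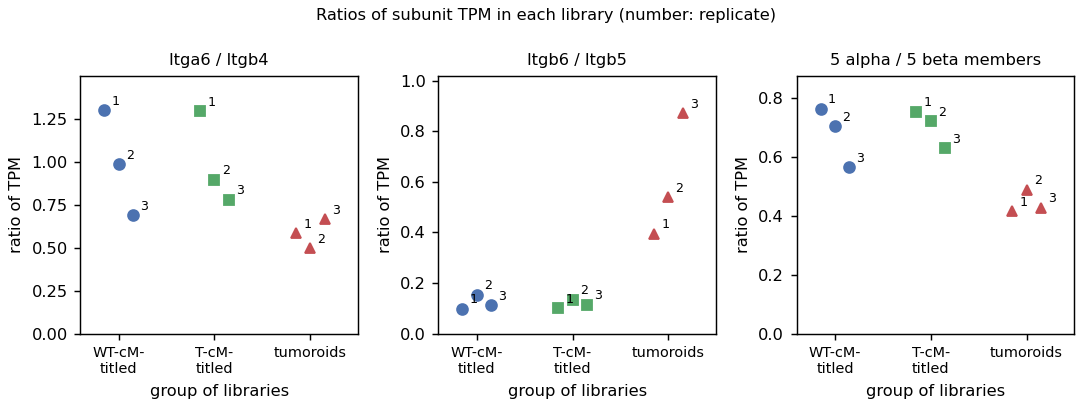
Ratio of TPM in each library, numbered by replicate, for Itga6 over Itgb4, Itgb6 over Itgb5, and the summed 5 alpha over the summed 5 beta members, with all axes from 0. Tumoroids lie below all organoid libraries in the left and right panels and above them in the middle panel.

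Most tested genes of the matrix ligands of these integrins had more RNA in tumoroids. Of 17 ligand genes 15 were tested, and 14 of them were higher in tumoroids at an adjusted p under 0.05 (edgeR; 29.6% of all genes were). Of the 15, however, 7 (Lamb1, Lamb2, Col4a1, Col4a2, Fn1, Tnc and Spp1) reached 1 TPM in tumoroids only, and the filter largely fixed their direction. Of the 8 that reached it in an organoid library 7 were higher, with a median log2 fold change of 2.92. The exception was Mfge8, a ligand of Itgav dimers (log2 fold change -0.03, adjusted p = 0.91, edgeR), and Lama1 and Vtn, at 0 counts in all libraries, were not tested. Among the laminin chains bound by Itga3 and Itga6, Lama5 was at 5.29 to 10.8 CPM in organoids and 264, 698 and 389 CPM in tumoroids, and Lamb2 at 0.73 to 2.17 CPM and 65.5, 92.0 and 96.7 CPM. Both of these laminin genes were apart between tumoroids and organoids. Lamc1 overlapped between them and lost its call (0.80, adjusted p = 0.013, edgeR) without tumoroid 2 or tumoroid 3 and without replicate 2 or 3 of every group (adjusted p of 0.055 to 0.18, edgeR).

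Fn1 and Spp1 had next to no RNA in organoids. Fn1, fibronectin and so the ligand of the Itga5 dimer with Itgb1, had 0 to 2 counts in each organoid library and 32.9, 105 and 651 CPM in tumoroids 1 to 3. Fn1 and Itga5 thus shared their highest library, tumoroid 3, which was the highest tumoroid for 9 of the 10 members and for Thbs1 as well. Spp1 (osteopontin, which binds Itgav dimers) had 0 to 5 counts in each organoid library and 529, 1573 and 1504 CPM in tumoroids. Col4a1, a chain of the basement membrane collagen, was at 0.34 to 0.85 CPM in organoids and at 27.9, 71.8 and 18.9 CPM in tumoroids. Thbs1 (thrombospondin-1), a matrix protein that several integrins bind, was at 2.17 to 3.81 CPM and at 73.8, 76.3 and 435 CPM.

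Between the organoid groups, where no receptor subunit passed, 5 of the 15 ligands were higher in T-cM-titled organoids (5.03% of all genes were) and none was lower (5.05% of all genes). Npnt (nephronectin, a basement membrane ligand of integrins) was at 11.1, 6.58 and 6.09 CPM in T-cM-titled organoids against 5.55, 2.49 and 1.77 CPM in WT-cM-titled ones, a log2 fold change of 1.35 ± 0.18 (SE; adjusted p = 7.3e-06, edgeR). Lamc1 (0.58), Lama5 (0.67) and Lamb2 (0.98) were also higher in 3 of 3 pairs, with adjusted p = 0.00047, 0.0032 and 0.038 (edgeR). These calls needed the pairing and replicate 2, since none of the 5 ligands passed without the replicate block (adjusted p = 0.82 for Npnt, edgeR) or without replicate 2 (adjusted p = 0.14 for Npnt, edgeR), where the log2 fold change of Npnt was 1.29 and 1.33. None passed on the scale of log2(TPM + 1) either. Lamb2 was also lost without replicate 3 and with voom, DESeq2, the newer form of edgeR and another filter (adjusted p of 0.051 to 0.37), Lama5 with voom and DESeq2 (0.057 and 0.051), and Lamc1 without replicate 3 (0.058, edgeR).

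Partners of the hemidesmosome and of the membrane showed mixed changes in tumoroids, with 2 of the 7 genes higher and 2 lower, shares close to the 29.6% and 20.8% of all genes. The tetraspanins Cd9 and Cd81, which associate with integrins in the membrane, rose, from 99.0 to 351 CPM (log2 fold change 1.86, adjusted p = 0.00037, edgeR) and from 155 to 400 CPM (1.38, adjusted p = 1.9e-05, edgeR) in the group means. The tetraspanin Cd82 fell, from 193 to 120 CPM (-0.68, adjusted p = 0.0044, edgeR), but not on the scale of log2(TPM + 1), where its value was -0.15 (adjusted p = 0.42, limma), and not without replicate 2 of every group (-0.65, adjusted p = 0.073, edgeR). Dst, whose epithelial form is a plakin of hemidesmosomes, fell from 81.5 to 28.7 CPM (-1.51, adjusted p = 0.00034, edgeR). Plec, the plakin that links Itgb4 to keratins, ranged from 97.0 to 363 CPM over the tumoroids and had a log2 fold change of -0.16 (adjusted p = 0.73, edgeR), and Cd151, the tetraspanin that binds Itga3 and Itga6 dimers, one of 0.07 (adjusted p = 0.67, edgeR). In the organoids Cd9 was higher in T-cM-titled libraries in 3 of 3 pairs (0.71 ± 0.10, SE; adjusted p = 8.0e-06, edgeR), again not without the block or replicate 2, nor on the scale of log2(TPM + 1), at 0.71 (adjusted p = 0.27, limma).

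Of the 18 tested genes of integrin activators and adhesion adaptors, 10 were higher and 3 lower in tumoroids, beside 29.6% and 20.8% of all genes. Fermt2 and Lims2 reached 1 TPM in tumoroids only, and of the other 16 genes 8 were higher and 3 lower. Tns4, a tensin that binds Itgb1 tails, was at 16.5 to 37.2 CPM in organoids and at 222, 274 and 351 CPM in tumoroids (3.42 ± 0.22, SE; adjusted p = 3.7e-06, edgeR). Parva (1.28 ± 0.10, SE; adjusted p = 1.1e-05, edgeR), the parvin that works with Ilk, and Fermt1 (0.91 ± 0.14, SE; adjusted p = 0.00043, edgeR), the kindlin of epithelia, also rose. Bcar1 (-0.82), Zyx (-0.56) and Pxn (-0.44), proteins of focal adhesions, fell at adjusted p = 0.00068, 0.0072 and 0.012 (edgeR), but on the scale of log2(TPM + 1) none passed and Pxn turned to 0.08 (adjusted p = 0.63, limma). Pxn also lost its call without replicate 2 or 3 of every group (-0.46 and -0.40, adjusted p = 0.086 and 0.12, edgeR), and Zyx without replicate 2 of every group (-0.49, adjusted p = 0.10, edgeR). Tln1, the talin that switches integrins on, gave 0.26 (adjusted p = 0.23, edgeR) and Ilk 0.10 (adjusted p = 0.55, edgeR).

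In the organoid groups, Tns4 (0.52), Tns3 (0.32) and Tln2 (0.38) were higher and Tns2 (-0.66) and Lims1 (-0.34) lower in T-cM-titled libraries, each in 3 of 3 pairs. Their adjusted p were 0.0018, 0.011, 0.041, 0.0041 and 0.014 (edgeR), and none of the 5 passed without the block, without replicate 2, without replicate 3 or on the scale of log2(TPM + 1). Tln2 was also lost with voom, DESeq2, the newer form of edgeR and another filter (adjusted p of 0.057 to 0.18), Tns2 with voom and DESeq2 (0.066 and 0.059), and Tns3 and Lims1 with voom (0.060 and 0.055, limma). Without replicate 3 the value of Tns2 was -0.39. Over all genes 5.03% were higher and 5.05% lower. Of the 3 genes that keep integrins inactive, Dok1 rose in tumoroids (0.81, adjusted p = 0.0052, edgeR) and Sharpin fell (-0.57, adjusted p = 0.0046, edgeR), the latter not on the scale of log2(TPM + 1), at -0.04 (adjusted p = 0.80, limma). Both calls ended without replicate 3 of every group (Dok1 at 0.71, adjusted p = 0.070, and Sharpin at -0.44, adjusted p = 0.078, edgeR). Itgb1bp1 gave 0.19 (adjusted p = 0.34, edgeR).

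The list of latent TGF-beta genes holds the TGF-beta precursors, of which those of Tgfb1 and Tgfb3 are bound by the Itgav dimers with Itgb6 and Itgb8, and proteins that hold latent TGF-beta. Of the 7 genes 5 were tested, and each of the 5 was higher in tumoroids, beside 29.6% of all genes. All but Tgfb1 reached 1 TPM in tumoroids only, so the filter largely fixed the direction of the other 4 and the count of 5 says nothing further. Tgfb3 had 0 counts in all 6 organoid libraries and 21.1, 23.2 and 63.6 CPM in tumoroids, a mean at least 213-fold higher against 3 counts per organoid library, or at least 131-fold higher without tumoroid 3. Tgfb1 was at 1.02 to 1.96 CPM in organoids and at 10.3, 6.40 and 14.1 CPM in tumoroids (2.79 ± 0.31, SE; adjusted p = 7.2e-05, edgeR). Ltbp3, a latent TGF-beta binding protein, had 1 to 3 counts in each organoid library and 15.6, 17.1 and 33.4 CPM in tumoroids. Tgfb2 and Ltbp1 had at most 4 counts in any organoid library and 0.27 to 2.78 and 0.71 to 20.8 CPM in tumoroids, and Ltbp1 did not pass on the scale of log2(TPM + 1), at 1.22 (adjusted p = 0.070, limma). None of the 5 passed between the organoid groups (edgeR), where the counts of 4 of them were too low to show a change.

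**Figure D5:**
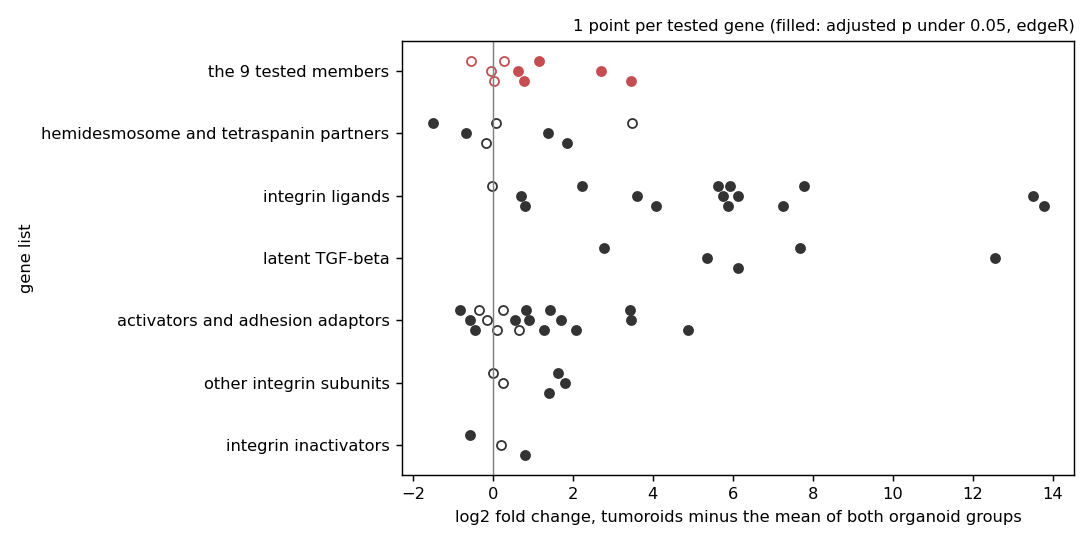
Log2 fold change in tumoroids over the mean of both organoid groups, with 1 point per tested gene of each list, filled where the adjusted p was under 0.05 (edgeR), and points set at 3 heights within a row for legibility. The integrin subunits lie between -0.54 and 3.45, and fitted values of genes near 0 counts in organoids, such as Tgfb3, are no measure of size.

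The other integrin subunits of the genome were mostly too low to test. Of 17 further subunit genes, which include those of leukocytes, platelets and muscle, 5 passed the filter, and 3 of these were higher in tumoroids (29.6% of all genes were) and none lower. Itga2b and Itgae reached 1 TPM in tumoroids only, and of the other 3 genes 2 were higher. Itga1, a collagen-binding partner of Itgb1, was at 6.77 to 12.2 CPM in organoids and at 32.4, 28.2 and 15.6 CPM in tumoroids (1.40 ± 0.25, SE; adjusted p = 0.0013, edgeR). Itga7, a laminin-binding partner of Itgb1, was at 2.25 to 6.91 CPM and at 4.31, 11.2 and 15.2 CPM (1.64 ± 0.42, SE; adjusted p = 0.0088, edgeR), so that tumoroid 1 lay within the organoid range, and it lost the call without replicate 2 of every group (adjusted p = 0.11, edgeR). Itgae, a partner of the leukocyte subunit Itgb7, gave 1.82 ± 0.61 (SE; adjusted p = 0.032, edgeR) from at most 39 counts in a library, a value that the filter favoured, and lost the call without replicate 3 of every group (adjusted p = 0.14, edgeR), without 1 of several organoid libraries (adjusted p of 0.054 to 0.067 without WT-cM-titled replicate 2 or 3, or T-cM-titled replicate 2 or 3, edgeR) and with voom (adjusted p = 0.11, limma). Itgb2, the beta subunit of leukocyte integrins, had at most 4 counts in any library, and Itgb3, another partner of Itgav, had 20 counts in tumoroid 3 and at most 1 elsewhere. No gene of this list passed between the organoid groups (edgeR; smallest adjusted p = 0.12, for Itga7).

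The genes whose pattern was most like that of 3 members were found by Pearson's r of log2 CPM over the 9 libraries, as a description. For Itga5, the largest rise with all libraries kept, they were Erich3 (0.994), Skap2 (0.992) and Nppb (0.991). For Itga2, the lowest log2 fold change, they were Zfp182 (0.958), Sema7a (0.947) and Tspan1 (0.946). For Itga3, the smallest p between the organoid groups, they were Coq10b (0.959), Otud7b (0.957) and Rb1cc1 (0.956). The 9 libraries fall into organoids and tumoroids, so these coefficients carry the gap between them as well as the spread within each.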

How the data were processed

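RNA-seq of 9 libraries was analysed. Reads were mapped with STAR to mm10 by the authors, who deposited 1 table of counts without any normalisation and 1 of TPM. The counting tool, its strand setting and the gene lengths are not given in the sources used here. Genes reaching 1 TPM in any library were kept, and their counts were TMM-scaled and fitted with the quasi-likelihood method of edgeR 4.0.16 in its earlier (legacy) form (R 4.3.3, two-sided, Benjamini-Hochberg over 16208 genes). Calls needed an adjusted p under 0.05 and, where stated, an absolute log2 fold change above 1. Organoid groups were compared with the replicate number as a block, since deviations of same-numbered libraries correlated at 0.546, 0.338 and 0.547. Tumoroids were compared over 9 libraries without it. Intervals are 95%. Alternatives used limma 3.58.1 and DESeq2 1.42.0. The fit was tested on simulated data. Figures used Python 3.11.15.

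The members and the gene lists were chosen with earlier results of these data known. All 10 members were described. For the other lists, up to 4 tested genes with the smallest p in each of the comparisons of organoid groups and of tumoroids with both, and known partners or ligands, could be named. Tln2, Zyx, Pxn, Ilk, Fermt2, Lims2, Itgb2 and Itgb3 were named outside this rule, after their values were seen. Groups follow the titles. Protein sequences were not used here. Some genes of the lists are counted but not reported here by name.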

Additional observations from a re-analysis of the deposited data

How the results depend on the processing

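Between the organoid groups 0 members passed under every alternative, which included no replicate block and each replicate number left out. When libraries were left out of the tumoroid comparisons, 3 to 6 members had an adjusted p under 0.05 against both groups, 3 to 5 against WT-cM-titled and 3 to 5 against T-cM-titled organoids, and 2 to 3 were also above a log2 fold change of 1 in each. With limma on log2(TPM + 1), a scale on which the median of all genes lies 0.52 higher against both groups, that latter count was 5 in all 3 comparisons. With no TPM filter it was 4 in all 3 comparisons, with Itgb8 added to the test and, against T-cM-titled organoids, Itgav also passing (1.06, adjusted p = 0.034, edgeR). The replicate block left 5, 5 and 4 members passing in the tumoroid comparisons and changed no call among the members. Other scalings, filters, voom and DESeq2 gave 5 or 6 members against both groups. The share of all genes passing under each setting was not computed, so these counts show only how far the number of members moved. Itga5, whose direction the TPM filter largely fixed, is among the members counted in each tumoroid comparison.

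Direction turned in values that passed no test, and in Pxn (0.080 on log2(TPM + 1)). Between the organoid groups Itga6 became -0.015 with upper-quartile factors and -0.010 without the block, Itgb4 became 0.0044 with log2(TPM + 1), and Itgb5 became -0.0018 with voom, -0.0010 with DESeq2, -0.0015 with RLE factors, -0.021 with upper-quartile factors, -0.0025 with no filter and -0.0021 without the block. With replicates left out, Itga5 ran from -0.10 to 0.16, Itga6 from -0.071 to 0.047, Itgb4 from -0.039 to 0.0012 and Itgb5 from -0.072 to 0.078. Against both groups Itga3 became 0.053 with upper-quartile factors and 0.44 with log2(TPM + 1), and Itga6 -0.021 with DESeq2 and with RLE factors. With libraries left out they ran from -0.22 to 0.14 and from -0.46 to 0.29. Against WT-cM-titled organoids Itga3 became -0.014 and Itga6 -0.028 with DESeq2 and with RLE factors, and they ran from -0.13 to 0.23 and from -0.49 to 0.31 with libraries left out. Against T-cM-titled organoids Itga3 became 0.34 with log2(TPM + 1) and Itga6 -0.014 with DESeq2 and with RLE factors, and with libraries left out Itga2 ran from -1.22 to 0.0045, Itga3 from -0.31 to 0.052 and Itga6 from -0.42 to 0.28. The cause was not tested. For Itgb8 in organoids, at 0 counts, the depth could not show a difference.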
